A study of Mus musculus with 4 samples.

Results

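A set of 10 genes of the extracellular matrix was followed in sorted mouse mammary cells with and without ΔNp63, the isoform of the transcription factor p63 that lacks the transactivating N terminus. They were Sparc, Fn1, Postn, Tnc, Thbs1, Thbs2, Fbn1, Bgn, Fmod and Eln, 10 of the 54393 gene identifiers in the deposited count table. They were chosen by name from the matricellular proteins, adhesive glycoproteins, elastic fibre proteins and small proteoglycans, and also by their measured values, namely that the ratio of the knockout to the wild-type library differed between the time points. These ratios are therefore given as a description, with no test. All 10 genes passed the filter on low counts, which left 18917 genes.

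The study used 4 RNA sequencing libraries. The genotypes were WT and Dnp63 cKO (below, cKO, for conditional knockout), and each genotype had 1 library taken 10 days and 1 taken 5 weeks after tamoxifen (1.5 mg/ml), given at puberty, at 4 weeks of age, to delete ΔNp63. The labels name the mice as iK14-Cre; DNp63 f/f, an inducible Cre line named for keratin 14 with floxed alleles, with the same text for every library. Whether the WT animals carried the Cre or the floxed alleles, whether glands were pooled, and how many animals stood behind a library are not given in the sources used here. Glands of 5 and 35 weeks are named in the growth protocol, ages that the tamoxifen age and the intervals do not yield together, so age was not used. From dissociated glands, cells bearing CD45, CD31 or Ter119 (leukocytes, endothelium, red cells), called stromal in the labels, were sorted out and 100000 cells were used per library. None of these markers is one of fibroblasts.

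Matricellular proteins such as SPARC, periostin, tenascin C and the thrombospondins sit in the matrix without being its main scaffold, and change how cells attach to it and how it is assembled. Fibronectin is an adhesive glycoprotein bound by integrins, fibrillin and elastin build elastic fibres, and biglycan and fibromodulin are small leucine-rich proteoglycans that bind collagen fibrils. In the mammary gland most of this matrix is made by stromal fibroblasts, and myoepithelial cells add to it.

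Total counts lay between 31714181 and 79122250 per library, and the 10 genes together took 1.79% of counts in WT and 1.01% in cKO at 10 days, and 0.887% in WT and 1.92% in cKO at 5 weeks. Trp63, the targeted gene, stood at 46.8 CPM (10 days) and 160.5 CPM (5 weeks) in the WT libraries and at 12.8 and 25.5 CPM in the cKO libraries, lower in cKO both times. The counts are per gene and do not separate ΔNp63 from other isoforms. CPM is the count of a gene divided by the library's total, scaled by the TMM method and put on a common scale. The labels call the material mammary epithelial cells. Luminal epithelial markers (10 genes, summed level 7728 to 9690 CPM) were present in every library. So were fibroblast markers that are not matrix genes (20 genes, 6822 to 18725 CPM, most of it Gsn in each library). In such bulk samples, fewer cells of a type and less RNA per cell cannot be told apart. The cKO library at 10 days also held adipocyte transcripts: the 8 adipocyte markers summed to 747.7 CPM there against 103.1 to 264.6 in the other libraries, and Cfd (adipsin) stood at 341.0 CPM against 1.45 to 2.12. Fabp4, another adipocyte marker, was at 261.7 CPM there and at 240.6 CPM in cKO at 5 weeks, against 93.7 and 115.9 CPM in WT. Of the basal markers, Krt5 stood at 7826 CPM and Krt14 at 6510 CPM in WT at 5 weeks, against at most 1018 and 1637 CPM in the others, while 5 of the 10 basal markers were lower in WT at 5 weeks than at 10 days. The part of these differences in cell content in the results that follow was not tested.

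The direction of the genotype difference turned over between the time points for most of the 10 genes. At 10 days 7 of them were lower in cKO than in WT (49.8% of tested genes were), and at 5 weeks all 10 were higher (49.1% of tested genes were), each of these differences beyond its counting error. Postn, Sparc and Fn1 were lower in cKO by at least 1.5-fold at 10 days and higher by at least 1.5-fold at 5 weeks, a pattern held by 437 of the 18917 tested genes (2.31%). At 10 days 4 of the 10 genes were at least 1.5-fold lower (14.2% of tested genes) and 2 at least 1.5-fold higher (16% of tested genes). At 5 weeks 5 were at least 1.5-fold higher (17.6% of tested genes), and 1 was so at both time points (6.38% of tested genes). These ratios chose the genes, so nothing is read from these counts. On the log2 scale the 10 ratios of cKO to WT had a median of -0.40 at the early and 0.76 at the late time point, beside 0.00 and -0.01 over all tested genes. Intervals given below for single ratios are exact 95% binomial intervals that cover counting error only, since there was 1 library per genotype and time point.

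**Figure D1:**
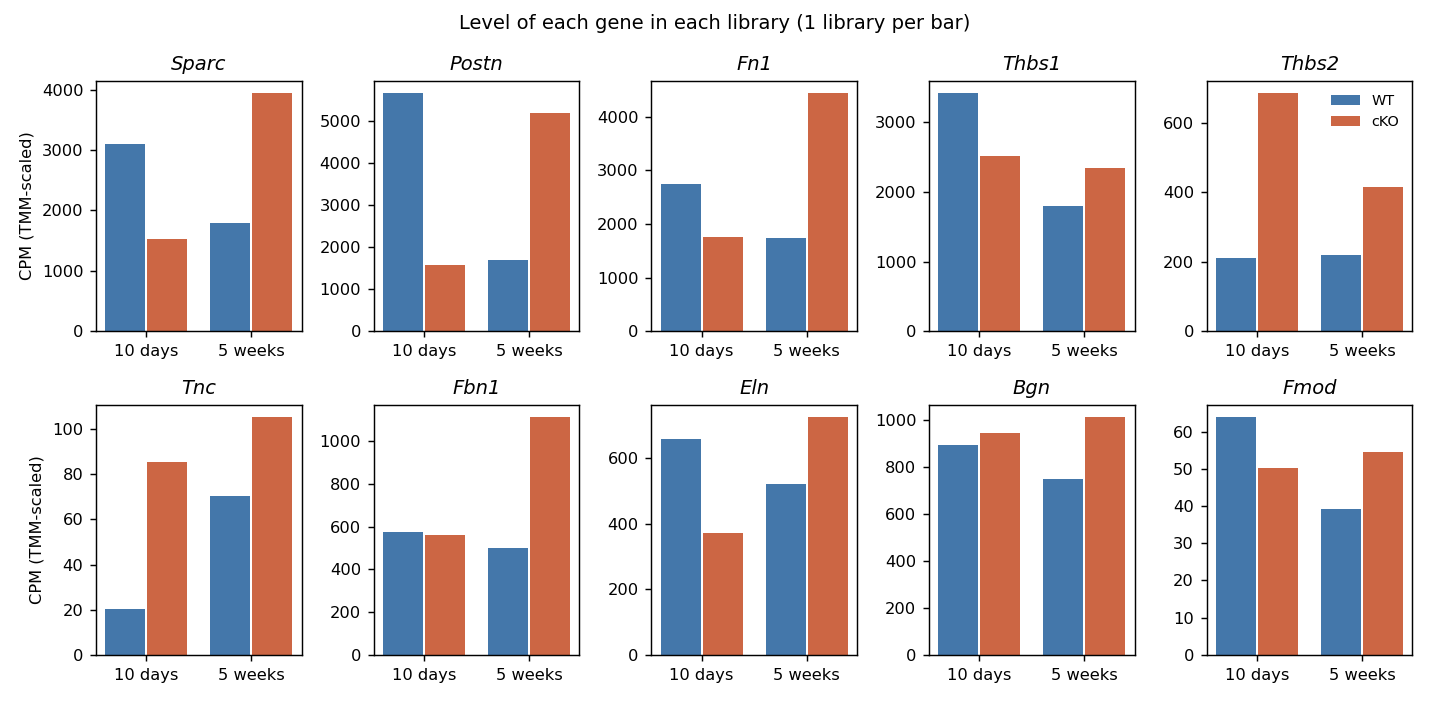
Level of each of the 10 genes in each library, as TMM-scaled CPM on axes that start at 0, with 1 bar per library (blue WT, orange cKO) and so no error bars. The cKO bar is the lower of the pair at 10 days for Sparc, Postn, Fn1, Thbs1, Fbn1, Eln and Fmod, and the higher of the pair at 5 weeks for every gene.

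The collagen-binding matricellular genes held the widest shift. Postn encodes periostin, which promotes collagen cross-linking (ENSMUSG00000027750.16, GRCm38 chromosome 3, 54361109 to 54391037). It stood at 5669 CPM (10 days) and 1702 CPM (5 weeks) in the WT libraries, and at 1569 and 5184 CPM, in the same order, in the cKO libraries. Its high libraries were thus WT at 10 days and cKO at 5 weeks, and the levels of the genotypes overlapped. The log2 ratio of cKO to WT was -1.85 at 10 days (interval -1.87 to -1.84), 3.61-fold lower, and 1.61 at 5 weeks (1.60 to 1.62), 3.05-fold higher. The change in the ratio, 3.46 on the log2 scale, stood at percentile 99.4 among all tested genes.

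Sparc encodes a secreted calcium- and collagen-binding protein (ENSMUSG00000018593.13, chromosome 11, 55394500 to 55423183). It was at 3097 CPM (10 days) and 1793 CPM (5 weeks) in the WT libraries, and at 1526 and 3947 CPM, in the same order, in the cKO libraries. As for Postn, cKO at 10 days was the lowest library, but here cKO at 5 weeks was the highest. The log2 ratio went from -1.02 (interval -1.04 to -1.01) to 1.14 (1.13 to 1.15).

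Fn1, the fibronectin gene (ENSMUSG00000026193.15, chromosome 1, 71585520 to 71653200), followed at a smaller size. It was at 2745 CPM (10 days) and 1738 CPM (5 weeks) in the WT libraries, and at 1764 and 4439 CPM, in the same order, in the cKO libraries. Here cKO at 10 days and WT at 5 weeks were nearly level, and cKO at 5 weeks stood above the other libraries. The log2 ratio was -0.64 at 10 days (-0.65 to -0.62) and 1.35 at 5 weeks (1.34 to 1.36).

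The thrombospondin genes went apart from each other. Thbs1 encodes a platelet and stromal glycoprotein that activates latent TGF-β (ENSMUSG00000040152.8, chromosome 2, 118111876 to 118127133). It was at 3423 CPM (10 days) and 1802 CPM (5 weeks) in the WT libraries, and at 2511 and 2345 CPM, in the same order, in the cKO libraries, with log2 ratios of -0.45 and 0.38. Neither ratio reached 1.5-fold, and both cKO libraries lay between the WT libraries. Thbs2, whose product is an antiangiogenic relative that affects collagen fibril assembly (ENSMUSG00000023885.9, chromosome 17, 14665500 to 14694235), was at 210.4 CPM (10 days) and 218.1 CPM (5 weeks) in the WT libraries, and at 685.9 and 416.2 CPM, in the same order, in the cKO libraries. Both of its cKO libraries lay above both WT libraries. Its log2 ratio was 1.70 at 10 days (1.67 to 1.74) and 0.93 at 5 weeks (0.90 to 0.96).

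Tnc encodes tenascin C, a protein that weakens cell adhesion to fibronectin and is raised in remodelling tissue (ENSMUSG00000028364.15, chromosome 4, 63959785 to 64047015). It was at 20.2 CPM (10 days) and 70.5 CPM (5 weeks) in the WT libraries, and at 85.6 and 105.5 CPM, in the same order, in the cKO libraries. WT at 10 days stood apart as the lowest library, and both cKO libraries were above both WT libraries. The log2 ratio was 2.08 at 10 days (1.96 to 2.20) and 0.58 at 5 weeks (0.52 to 0.64). The 5-week ratio lay just short of 1.5-fold and passed it with DESeq2 size factors, upper-quartile factors or library totals. Thbs2 and Tnc were thus the only 2 of the 10 genes whose ratio was lower at 5 weeks than at 10 days, with changes of -0.77 and -1.499.

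The promoters of the gene with the widest shift upward in its ratio and of the genes with a shift downward are shown for comparison. Each run holds the 250 bases before the RefSeq start nearest to the annotated gene start (GRCm38.p6), 5′ to 3′ on the gene's strand, and capitals mark matches to the motifs searched.
Postn, chr3:54360857-54361106, plus strand: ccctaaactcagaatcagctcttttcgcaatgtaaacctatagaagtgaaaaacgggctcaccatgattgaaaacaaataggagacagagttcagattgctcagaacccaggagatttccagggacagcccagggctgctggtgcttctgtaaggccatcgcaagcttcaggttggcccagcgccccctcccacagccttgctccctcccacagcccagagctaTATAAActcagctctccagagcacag
Tnc, chr4:64047016-64047265, minus strand: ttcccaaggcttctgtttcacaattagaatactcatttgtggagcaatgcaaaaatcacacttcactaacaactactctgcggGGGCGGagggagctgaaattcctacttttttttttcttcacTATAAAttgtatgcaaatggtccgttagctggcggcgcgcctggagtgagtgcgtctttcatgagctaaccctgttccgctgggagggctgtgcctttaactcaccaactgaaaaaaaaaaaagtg
Thbs2, chr17:14694263-14694512, minus strand: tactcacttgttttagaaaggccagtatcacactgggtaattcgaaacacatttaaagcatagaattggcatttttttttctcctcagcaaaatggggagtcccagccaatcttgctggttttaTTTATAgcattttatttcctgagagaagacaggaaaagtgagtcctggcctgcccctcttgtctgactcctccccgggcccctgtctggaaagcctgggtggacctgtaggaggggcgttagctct
RefSeq promoters matched 7 of the 10 genes (Sparc, Postn, Tnc, Thbs2, Fbn1, Bgn and Fmod), and not Fn1, Thbs1 and Eln. Both strands of each window were searched for 5 motifs, and no matches to different motifs overlapped in the 7 windows. The TATA box, searched with the letters TATAAA, was held by all 3 promoters shown and by none of the remaining 4 windows. It begins 26 bases before the start in Postn and 126 bases before it in Tnc and Thbs2 (in Thbs2 on the other strand). Of 32817 promoter windows of that length, 12.4% hold it. The GC box, for which the search used GGGCGG, was found in the windows of Tnc, Fbn1 and Bgn and in 32.7% of all windows. The p53 family half-site was found in Sparc and in 7.12% of all windows. The AP-1 motif, written for the search as TGANTCA, was found in none of the 7 and in 6.75% of all windows. The TEAD motif, for which the letters were GGAATG, was found in none of the 7 and in 12.6% of all windows. The TATA box thus did not separate Postn from Tnc and Thbs2, and a match of letters is not a site.

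The elastic fibre genes were higher in cKO at 5 weeks. Fbn1 encodes fibrillin-1, the main protein of microfibrils (ENSMUSG00000027204.13, chromosome 2, 125300594 to 125507993). It was at 574.5 CPM (10 days) and 499.8 CPM (5 weeks) in the WT libraries, and at 561.7 and 1116 CPM, in the same order, in the cKO libraries. The level in cKO at 5 weeks stood above the other 3 libraries, which were close to each other. The log2 ratio was -0.03 at 10 days (-0.06 to -0.00) and 1.16 at 5 weeks (1.14 to 1.18).

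Eln, the elastin gene (ENSMUSG00000029675.12, chromosome 5, 134702593 to 134747323), was at 656.8 CPM (10 days) and 519.8 CPM (5 weeks) in the WT libraries, and at 372.1 and 725.6 CPM, in the same order, in the cKO libraries. Here the library that stood apart was cKO at 10 days, the lowest. The log2 ratio was -0.82 at 10 days (-0.85 to -0.79) and 0.48 at 5 weeks (0.46 to 0.50).

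The small proteoglycan genes had the narrowest ranges over the 4 libraries. Bgn, for biglycan (ENSMUSG00000031375.17, chromosome X, 73483602 to 73495933), was at 891.4 CPM (10 days) and 750.4 CPM (5 weeks) in the WT libraries, and at 945.3 and 1014 CPM, in the same order, in the cKO libraries. Its highest and lowest libraries differed by 1.35-fold, against 1.63-fold for Fmod and 1.90-fold or more for the other 8 genes, and its log2 ratios were 0.08 and 0.43. Fmod, for fibromodulin (ENSMUSG00000041559.7, chromosome 1, 134037254 to 134048277), was at 64.0 CPM (10 days) and 39.2 CPM (5 weeks) in the WT libraries, and at 50.3 and 54.6 CPM, in the same order, in the cKO libraries, with log2 ratios of -0.35 (-0.44 to -0.25) and 0.48 (0.39 to 0.56).

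**Figure D2:**
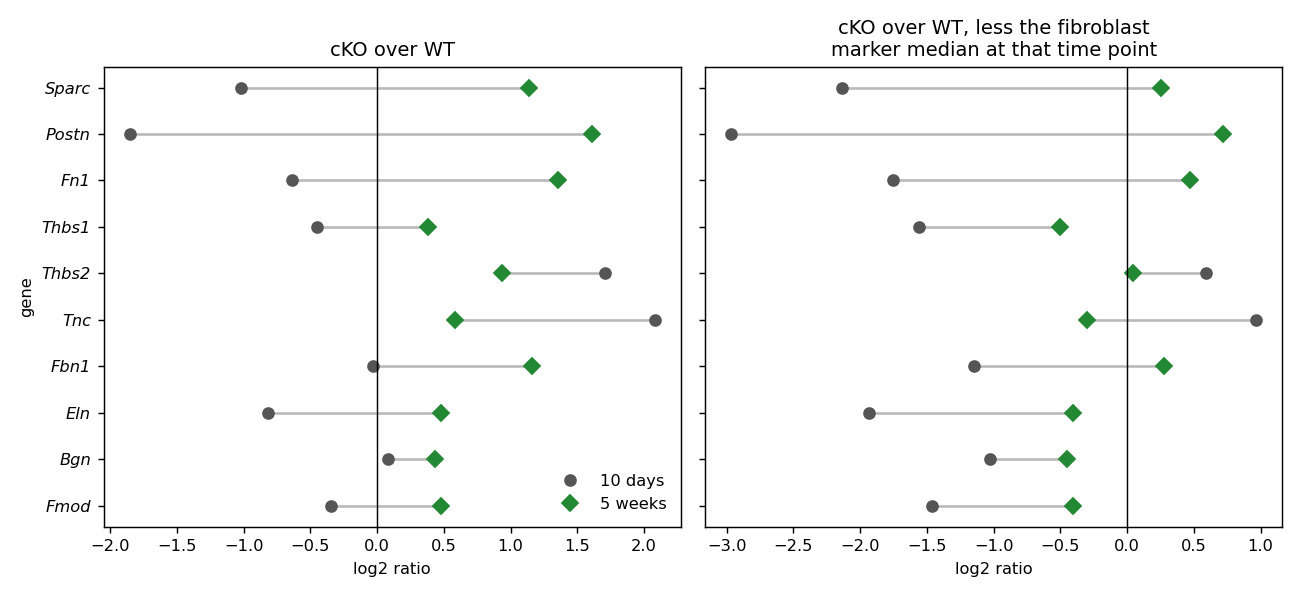
Log2 ratio of cKO to WT for each gene at 10 days (grey circles) and 5 weeks (green diamonds), 1 library per genotype, with a line joining the time points; the right panel subtracts at each time point the median log2 ratio of 20 fibroblast markers that are not matrix genes. Diamonds lie to the right of circles for 8 genes in both panels, and to the left for Thbs2 and Tnc.

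Levels can be compared between genes only per length. Per kilobase of annotated exon, the mean over the 4 libraries was highest for Sparc (684.0 CPM per kb, 403.0 to 1042), followed by Thbs1 (415.0, 296.8 to 563.6), Postn (405.8, 180.3 to 651.5) and Fn1 (228.6, 148.7 to 379.9). Bgn (147.6, 123.0 to 166.3), Eln (70.2, 46.0 to 89.6), Fbn1 (56.7, 41.2 to 92.0) and Thbs2 (54.6, 30.0 to 97.9) came next, and Fmod (15.7, 11.9 to 19.4) and Tnc (9.06, 2.60 to 13.6) were lowest. The ranges of Sparc, Thbs1 and Postn overlapped, as did those of Postn and Fn1, of Fn1 and Bgn, of Eln, Fbn1 and Thbs2, and of Fmod and Tnc. Those of Bgn and Eln, and of Thbs2 and Fmod, did not. The quantity rests on annotated exon lengths and not on the lengths of the isoforms present.

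Between the time points the genotypes ran in opposite directions. In WT, 8 of the 10 genes were lower at 5 weeks than at 10 days (45.5% of tested genes were) and 2 (Tnc and Thbs2) higher, with log2 changes from -1.74 for Postn to 1.80 for Tnc. In cKO, 8 were higher at 5 weeks (50.3% of tested genes were) and 2 (Thbs1 and Thbs2) lower, with changes from -0.72 for Thbs2 to 1.72 for Postn. The medians were -0.50 in WT and 0.63 in cKO. These values come from the same 4 libraries as the genotype ratios and are not separate evidence.

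The mean change with time over both genotypes did not choose the genes, but the spread it is set against did. The fit leaves 1 residual degree of freedom, which is the difference of the genotype ratios between the time points. The calls for the 10 genes are therefore given as a description, and nothing is read from a miss. By the quasi-likelihood method of edgeR 0 of the 10 genes reached the adjusted threshold of 0.05 (12 of 18917 genes, 0.0634%, did), and 0 had an unadjusted p under 0.05 (5.35% of genes). DESeq2 called 0 of the 10 (1.04% of genes) and gave 1 an unadjusted p under 0.05 (4.96% of genes), and limma-voom called 0 (0.196% of genes). Without the filter on low counts edgeR called 1 of the 10, Tnc (1.91% of genes). Tnc had the largest mean change, a log2 fold change of 1.05 (SE 0.426, n = 2 per time point, edgeR adjusted p = 0.959, and 0.00244 without the filter), and was higher at 5 weeks in both genotypes. Postn, with the widest difference in ratio, had a log2 fold change of -0.01 and an SE of 1.12.

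In the fit of genotype with time held constant, 0 of the 10 genes and 11 of 18917 (0.0581%) passed in edgeR. An unadjusted p under 0.05 was reached by 2 of the 10 (2196 of 18917 genes, 11.6%), and DESeq2 called 2 (513 genes, 3.14% of those it gave an adjusted p), in each case Tnc and Thbs2. The values in this contrast chose the genes and nothing is read from these counts. The log2 fold changes were 1.33 for Tnc (SE 0.428, n = 2 per genotype) and 1.32 for Thbs2 (SE 0.298). For the other 8 they ran from -0.17 for Eln to 0.56 for Fbn1. Opposite ratios, as in Postn, Sparc and Fn1, cancel at least in part in this fit, while those of Bgn (0.08 and 0.43) were both above 0.

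Other matrix genes were taken from lists of related genes. Of 12 fibrillar and associated collagen genes, 10 were below WT at 10 days (49.8% of tested genes were). At 5 weeks 11 were above WT (49.1% of tested genes were). Their median log2 ratios were -0.55 and 0.84. Col3a1, the type III collagen chain of loose stroma, was at 13514 CPM (10 days) and 7054 CPM (5 weeks) in WT, with cKO at 7365 and 19638 CPM, and Col1a1 had log2 ratios of -0.79 and 1.12. Col12a1 was below WT at both time points (-0.77 and -0.35). As with Postn, Sparc and Fn1, 4 of the 12 collagen genes were at least 1.5-fold lower at 10 days and higher at 5 weeks. Of all tested genes 2.31% were. For no list named here did a member pass edgeR's test of time or genotype.

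Among 20 other elastic fibre genes, with median ratios of 0.06 and then 0.46 on the log2 scale, 16 had a higher ratio at 5 weeks (8773 of 18917 tested genes had). Fbn2, the fibrillin of developing tissue, was at 83.8 CPM (10 days) and 16.1 CPM (5 weeks) in WT, with cKO at 18.8 and 42.2 CPM, log2 ratios of -2.16 and 1.39 beside -0.03 and 1.16 for Fbn1. The microfibril-associated genes Mfap4 (-2.01 and 0.46) and Mfap2 (-0.59 and 1.03) and the cross-linking enzyme gene Loxl1 (-0.67 and 0.90), which acts on elastin, had the same order. Fbln1 (0.96 and -0.21) and Loxl4 (2.01 and 0.29) had the opposite order. The latent TGF-β binding protein genes Ltbp3 (-0.20 and -0.08) and Ltbp4 (0.35 and -0.52) had the highest mean CPM of this list, not scaled by length.

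Among 23 tested of 24 other proteoglycan genes, 14 were above WT at 10 days and 16 at 5 weeks, with medians of 0.17 and 0.67. Small leucine-rich relatives of Bgn and Fmod varied. Dcn (decorin) was at 2643 CPM (10 days) and 3115 CPM (5 weeks) in WT, with cKO at 5298 and 4944 CPM, higher in both cKO libraries. Lum (lumican) had log2 ratios of -0.21 and 1.27, Aspn (asporin) 0.17 and 2.28, Omd (osteomodulin) 0.82 and 2.55, and Prelp 1.09 and 0.08. The large proteoglycan gene Vcan (versican) had -0.49 and 1.29, and the cell surface proteoglycan gene Sdc4 0.51 and -0.42.

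Among other matricellular genes (17 tested of 19), 2 of the 17 had a higher ratio at 5 weeks (8773 of 18917 tested genes had). The change in ratio chose the 10 genes, so nothing is read from a contrast in course with them. At 10 days 16 of the 17 matricellular genes were above WT, with a median log2 ratio of 0.89, and at 5 weeks 13, with 0.30. Tnxb, a tenascin of loose connective tissue, was at 617.7 CPM (10 days) and 845.3 CPM (5 weeks) in WT, with cKO at 1233 and 1390 CPM. Tgfbi, a relative of Postn that is induced by TGF-β, had log2 ratios of 1.61 and -0.35, against -1.85 and 1.61 for Postn. Sparcl1, a relative of Sparc, had 0.46 and 0.30, and Smoc2, of the same family, 0.37 and 0.32. Of the CCN genes, Ccn4 (formerly Wisp1) was at 24.996 CPM (10 days) and 4.01 CPM (5 weeks) in WT, with cKO at 7.59 and 9.84 CPM, Ccn3 had 1.84 and 0.00, Ccn1 0.69 and 0.23 and Ccn2 0.14 and 0.29.

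Receptor genes for these proteins (14 genes) had median log2 ratios of -0.17 at 10 days and 0.49 at 5 weeks. The integrin chain genes Itgb8 (-1.05 and 0.51), Itgb3 (-0.10 and 1.004), Itga8 (-0.39 and 0.67) and Itga9 (-0.34 and 0.60) had higher ratios at 5 weeks. Itga5, whose product pairs with that of Itgb1 as the main fibronectin receptor, had 1.23 and 0.07, while Itgb1 had -0.14 and 0.28. Lrp1, an endocytic receptor of thrombospondins, had 0.46 and 0.47, and the epithelial chain gene Itgb6 had -0.91 and -1.44. The TGF-β genes (12 genes, medians 0.05 and -0.04) held Tgfb3 (-0.73 and -0.07), Tgfb2 (-0.79 and -0.27), Tgfb1 (0.22 and -0.27), Tgfbr1 (-0.18 and 0.44), Tgfbr2 (0.70 and 0.57), Tgfbr3 (0.50 and 0.64) and Smad7, a feedback inhibitor (0.42 and -0.54).

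**Figure D3:**
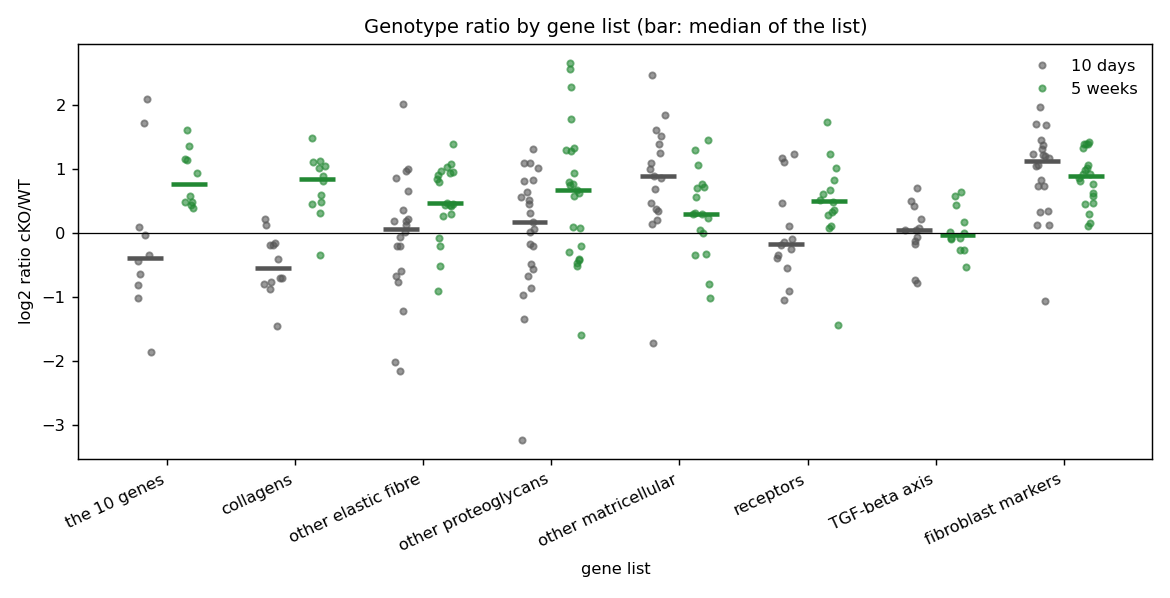
Log2 ratio of cKO to WT for every tested gene of each list at 10 days (grey) and 5 weeks (green), 1 library per genotype, with a bar at the list's median and horizontal jitter only for visibility. The medians of the 10 genes (-0.40 and 0.76) and of the collagens (-0.55 and 0.84) lie on opposite sides of 0, while those of the fibroblast markers (1.11 and 0.88) both lie above it.

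Fibroblast markers outside the matrix did not turn over with the 10 genes, apart from Thy1 (log2 ratios -1.07 at 10 days and 0.61 at 5 weeks). Of 20 such markers 19 were above WT at 10 days and 20 at 5 weeks, with median log2 ratios of 1.11 and 0.88. The ratio was higher at 5 weeks than at 10 days for 9 of the 20 (8773 of 18917 tested genes). Gsn and Serping1 were not among these 9. Gsn (gelsolin) was at 4235 CPM (10 days) and 9363 CPM (5 weeks) in WT, with cKO at 13620 and 10361 CPM, and Serping1, the C1 inhibitor gene, at 477.6 and 747.0 CPM in WT, with cKO at 1124 and 1017 CPM. At 10 days the summed markers were 6822 CPM (WT) and 18725 CPM (cKO), where the 10 genes summed to 17351 and 10072 CPM. At 5 weeks they were 12783 and 16018 CPM, where the 10 genes summed to 9133 and 19346 CPM. Gsn alone made most of each marker sum, so the sums follow that gene more than the other markers. Relative to the marker median at 10 days, 8 of the 10 genes were lower in cKO (93.4% of tested genes were), Postn by a log2 ratio of -2.97 and Bgn by -1.03, and 2 were higher (Tnc 0.97, Thbs2 0.59). Relative to it at 5 weeks, 5 were higher (9.75% of tested genes were), from Thbs2 (0.05) to Postn (0.72), and 5 lower, from Tnc (-0.30) to Thbs1 (-0.51). On this scale the median at 5 weeks was -0.13, so that the direction at 5 weeks turned for Tnc, Thbs1, Bgn, Fmod and Eln.

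**Figure D4:**
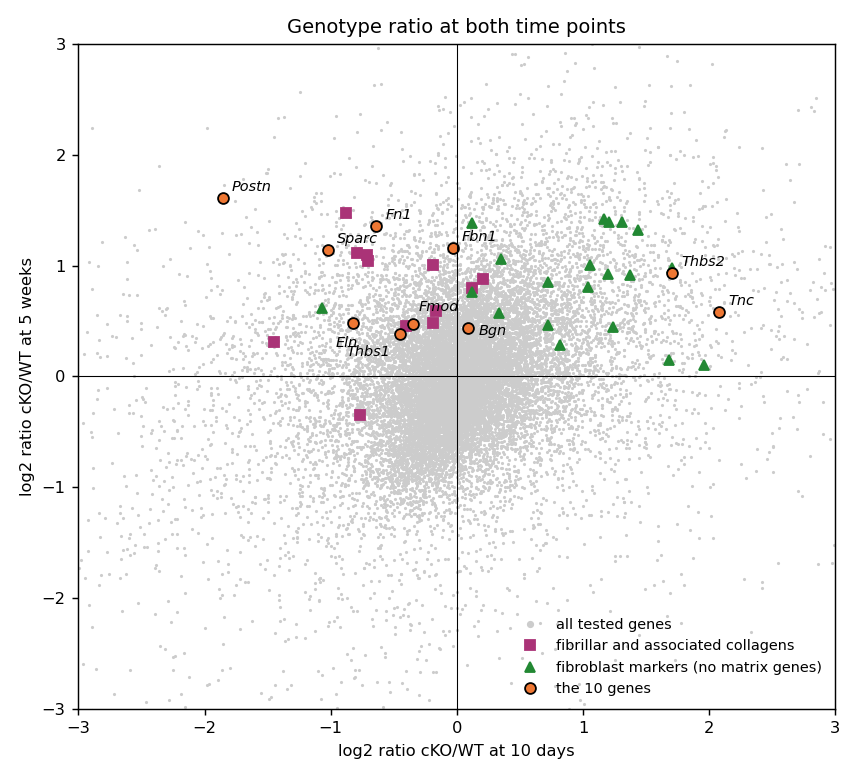
Log2 ratio of cKO to WT at 10 days (horizontal) against that at 5 weeks (vertical) for all tested genes (grey, 432 outside the axis limits), the 12 collagen genes, the 20 fibroblast markers and the 10 genes. Postn, Sparc and Fn1 lie at the upper left with most collagens, and Thbs2 and Tnc at the upper right with most fibroblast markers.

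Markers of other cells that the sorted material could hold were also measured. Pericyte and vascular smooth muscle markers (8 genes) summed to 395.8 CPM (10 days) and 503.4 CPM (5 weeks) in WT, with cKO at 555.3 and 636.1 CPM, with medians of 0.51 and 0.58. Rgs5 had log2 ratios of 0.22 and 1.17, and Notch3 0.17 and -0.07. Basal epithelial markers (10 genes, medians -0.82 and 0.10) summed to 5810 CPM (10 days) and 16669 CPM (5 weeks) in WT, with cKO at 2290 and 2428 CPM. Krt5 and Krt14 made 14336 CPM of the WT sum at 5 weeks. Of the 10 basal markers, 5 had log2 ratios below 0 at 10 days and above 0 at 5 weeks. These were Acta2 (-1.02 and 0.16), Mylk (-0.61 and 0.51), Myh11 (-0.56 and 0.15), Cnn1 (-0.40 and 0.09) and Oxtr (-0.31 and 0.43). They include contractile genes that are not particular to myoepithelial cells. Which cells their transcripts came from was not tested. Krt5 (-3.05 and -5.05), Krt14 (-1.99 and -4.34), Krt17 (-1.20 and -1.95) and Trp63 (-1.86 and -2.65) were below WT at both time points. Lgr5 (0.70 and 0.11) was above it at both. The share of all tested genes with such a change of sign was not counted. Endothelial markers (8 genes) summed to between 164.1 and 319.9 CPM and leukocyte markers (8 genes) to between 43.5 and 108.4 CPM, each highest in cKO at 5 weeks. The most abundant markers had these log2 ratios at 10 days and 5 weeks: for endothelium, Vwf (-0.00 and 0.54) and Tek (1.15 and 1.13), for leukocytes, Lyz2 (0.76 and 1.87) and Ptprc (1.01 and 2.07), and for luminal cells, Krt8 (0.15 and -0.04) and Krt18 (0.27 and -0.13). Nerve markers (5 genes) summed to between 101.6 and 249.4 CPM, with Sox10 at 188.7 CPM in WT at 10 days and 48.8 to 60.8 CPM in the others and Mbp at 38.1 to 61.6 CPM. Skeletal muscle markers (6 genes) had Des at 16.2 to 50.1 CPM and Tnnt3 at 0.81 to 2.39 CPM. Des is also on the pericyte and vascular smooth muscle list. No marker of any of these lists was at 0 counts in a library. Their part in the result was not tested.

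Pattern likeness was measured over the 4 libraries. The 5 genes outside the lists, of 4246 with a mean of at least 50 CPM, whose 4 library levels lay closest to the mean pattern of the 10 genes were Rora, Rap1b, Angptl2, Ireb2 and Lrrc58, with mean squared distances from 0.000362 to 0.00344 on the log2 scale. Rora was at 79.5 CPM (10 days) and 60.2 CPM (5 weeks) in WT, with cKO at 74.1 and 110.5 CPM. Angptl2, which encodes a secreted angiopoietin-like protein, was at 272.6 and 222.9 CPM in WT, with cKO at 239.5 and 365.8 CPM. That mean pattern was highest in cKO at 5 weeks and lowest in WT at 5 weeks, and averages genes that ran in opposite directions.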

How the data were processed

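The authors deposited estimated counts per gene for 4 libraries, made from the reads with Salmon on GRCm38 as far as the submitters' processing notes name tools, with 1 column per library and 0 other columns. The notes state neither a version nor an annotation. All 54393 identifiers matched GENCODE M21, which gave symbols and positions. The values are whole numbers and were used as deposited. Whether counting used strand is not given, and 5 of the 10 genes (Fn1, Tnc, Thbs1, Fbn1, Eln) overlap a gene on the other strand. Groups came from the genotype and time labels, and no label says that libraries came from separate animals. There was 1 library per genotype and time point, so p-values measure no spread between like libraries or animals. In the main fit they are set against the difference of the genotype ratios between the time points and a spread shared across genes.

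Genes were filtered with filterByExpr (minimum count 10), given TMM factors, and tested by the robust quasi-likelihood method of edgeR 4.0.16 under R 4.3.3. The model held a time term and a genotype term, so 1 degree of freedom was residual, with Benjamini-Hochberg adjustment over 18917 genes and a threshold of 0.05. SEs are the absolute log2 fold change over the square root of F. Ratios are differences of log2 CPM with a prior count of 2. A ratio of 1.5-fold was counted as a difference where there was 1 library a group. DESeq2 1.42.0 and limma 3.58.1 were alternatives. The fit was also run on simulated data with a time or a genotype effect and no difference of genotype ratios between the time points. In the real data the residual is that difference, so nothing is read from the simulation. The 10 genes, the lists, the marker lists and the rules were chosen with earlier results of these data known. Named were all 10 genes. From each other matrix list came up to 4 genes with the highest and 2 with the lowest signed change in ratio, at a mean of at least 5 CPM. To these were added the 2 most abundant of that list. From each marker list the 2 most abundant were named, and the remaining basal markers and Thy1 were named after their values were seen. Col3a1 and Col1a1 meet both parts. Trp63 and the 5 genes closest in pattern were also named. A further gene that the rule names is not reported here.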

Additional observations from a re-analysis of the deposited data

Results flagged for a closer look

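For 7 of the 10 genes the cKO library lay below the WT library at 10 days and above it at 5 weeks, beyond counting error at both. The share of all tested genes with this joint pattern was not counted, so nothing is read from the number. Taken singly and without regard to counting error, 49.8% of tested genes were below WT at 10 days and 49.1% above it at 5 weeks. The log2 ratio at 5 weeks minus that at 10 days was 3.46 for Postn, 2.16 for Sparc, 1.99 for Fn1, 1.30 for Eln, 1.19 for Fbn1, 0.83 for Thbs1 and 0.82 for Fmod. For Fbn1 the ratio at 10 days was -0.03, so that it was nearly level there. The difference between the time points was not tested, because genotype, time and their interaction use all 4 libraries, and these values chose the genes.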

How the results depend on the processing

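Scaling by DESeq2 size factors, upper-quartile factors or library totals left the number of genes lower by 1.5-fold at 10 days (4), and also higher at 5 weeks (3), as it was. Each gave 6 in place of 5 higher at 5 weeks and 2 in place of 1 higher at both, Tnc being added. Centring on fibroblast markers gave medians of -1.51 at 10 days, -0.13 at 5 weeks (reversed) and 1.24 for their difference, with 8 genes lower at 10 days, 1 higher at 5 weeks, 1 of both kinds and 0 higher at both. Prior counts of 0.5 and 5 left every count as it was. Without the filter on low counts 3.66% of all genes, in place of 2.31%, were lower at 10 days and higher at 5 weeks.

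Calls over all genes depended on the fit. For time, with 12 in the main fit, there were 192 by DESeq2, 37 by limma-voom, 638 with no filter (1 of the 10 genes, Tnc) and 1 without the genotype term. Leaving out 1 library, with time as the one term, gave 0 to 19 calls: 19 without WT at 10 days, 13 without cKO at 10 days, and 0 without WT or without cKO at 5 weeks (671 and 862 genes at an unadjusted p under 0.05). For genotype, with 11, there were 5 with DESeq2 size factors, 3 with upper-quartile factors, 513 by DESeq2, 20 by limma-voom and 1235 with no filter. Without the time term 0 were called (2182 at an unadjusted p under 0.05). Leaving out 1 library gave 0 to 61: 61 without WT at 10 days, 2 without WT at 5 weeks, and 0 without cKO at 10 days or at 5 weeks (1422 and 1173 at an unadjusted p under 0.05). In fits with 3 libraries the lone library is assumed to vary like the others. The causes were not tested. Libraries that stand alone at a genotype and time cannot be left out of a ratio. The 696 to 195276 counts per gene and library make counting error small, and the spread between animals is unknown.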
